A study of Mus musculus with 16 samples.

Results

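The genes described here encode the subunits of the receptors for glutamate, GABA and glycine, the fast-acting transmitters of the brain. They were chosen by symbol alone: AMPA (Gria), kainate (Grik), NMDA (Grin), delta (Grid), metabotropic glutamate (Grm), GABA-A (Gabr, the rho subunits included), GABA-B (Gabbr) and glycine receptor genes (Glra and Glrb). Of 19938 genes measured, 46 matched: 4 AMPA, 5 kainate, 6 NMDA, 1 delta, 7 metabotropic glutamate, 16 GABA-A, 2 GABA-B and 5 glycine receptor genes. Gabrb2 was the only member with several probe sets, and the brightest of them stood for it.

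AMPA, kainate and NMDA receptors are cation channels that open when glutamate binds, and they excite the cell. GABA-A and glycine receptors are chloride channels, which inhibit most mature neurons and depolarise many embryonic ones. Metabotropic glutamate and GABA-B receptors signal more slowly through G proteins. In the midbrain, glutamate and GABA inputs through these receptors set the firing of dopaminergic neurons, and the subunits a cell makes decide the kinetics, calcium entry and drug response of its receptors.

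RNA of mouse cells labelled as midbrain dopaminergic neurons was measured on 16 Affymetrix gene arrays. All cells were of a mixed C57BL/6 x 129/Ola background and of genotype Pitx3GFP/+, in which 1 copy of Pitx3, a transcription factor of midbrain dopaminergic neurons, carries green fluorescent protein (GFP). The design text states a sort for GFP-positive cells for all groups, and the sample labels state it for primary cells. Treated cells (5 biological replicates) were differentiated from induced pluripotent stem cells (iPSCs) in culture with recombinant human WNT1, a Wnt ligand, and DKK3, which belongs to the Dickkopf proteins. Control cells (5 biological replicates) came from iPSCs without these proteins. Primary cells came from the ventral midbrain of embryos at E13.5 and at E14.5, each measured on 3 technical arrays. Because technical arrays repeat 1 sample, each stage was 1 sample in the reported fits. Only 1 alternative setting, given at the end, took the 6 primary arrays as separate samples. The sources used here give no doses, days in culture, number of iPSC lines or pooling of embryos. A p-value therefore sets a difference against the spread of these samples alone, and part of that spread may be technical.

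Levels are log2 values, on which a step of 1 is a 2-fold change. Differences were taken only between levels of the same gene on different arrays, while dim genes were marked against all probe sets. Array medians lay between 5.85 and 6.02 and array lower quartiles between 4.32 and 4.70. No detection call was given, so a dim gene is described by a group mean below that quartile. This held for 10 members in control, 10 in treated, 5 in E13.5 and 4 in E14.5 samples. By definition 25% of all probe sets lie below the lower quartile of an array, so no result about the members is read from these counts. The labels' cell type was checked against its markers. The mean level of 9 dopaminergic genes was 9.41 to 9.80 on primary arrays, and all 9 were lower in control and in treated cells (limma, adjusted p under 0.05 for each). On iPSC-derived arrays it was 5.61 to 5.95 for the treated replicates 1 to 4 and 5.74 to 5.91 for the control replicates 1 to 4, against 7.87 and 7.47 on the arrays numbered 5. Th, which encodes the rate-limiting enzyme of dopamine synthesis, read 9.22 on treated array 5 and 8.52 on control array 5, no more than 6.17 on the other iPSC-derived arrays and at least 10.52 on primary arrays. Both arrays numbered 5 therefore stood apart from their groups, and results that rest on them are given with and without them.

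The first 250 bases before the transcription start are shown for the members on which the contrast turns: Gria2, the member with the largest difference; Glrb, the gene beside it on chromosome 3, which did not share that difference; Grik3, the largest difference among kainate receptor genes; and Gabrp, the only member that was higher in iPSC-derived cells. They were taken from RefSeq promoter windows (GRCm38.p6), written 5′ to 3′ on the strand of the gene, at chr3:80802836-80803085 (minus strand), chr3:80913661-80913910 (minus), chr4:125490446-125490695 (plus) and chr11:33578958-33579207 (minus). In Gria2 capitals mark the stretch closest to RE1, the element bound by the repressor REST; in the others they mark CG dinucleotides.
Gria2: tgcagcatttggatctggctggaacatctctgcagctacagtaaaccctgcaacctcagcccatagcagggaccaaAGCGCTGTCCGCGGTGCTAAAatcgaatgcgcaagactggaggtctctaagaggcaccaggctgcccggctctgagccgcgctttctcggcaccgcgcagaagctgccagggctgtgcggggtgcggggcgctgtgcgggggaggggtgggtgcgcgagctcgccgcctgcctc
Glrb: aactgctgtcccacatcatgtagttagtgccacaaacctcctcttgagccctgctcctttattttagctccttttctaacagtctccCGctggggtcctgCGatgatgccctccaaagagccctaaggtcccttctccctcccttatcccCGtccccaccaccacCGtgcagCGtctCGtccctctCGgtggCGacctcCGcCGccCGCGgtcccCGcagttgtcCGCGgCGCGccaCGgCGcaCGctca
Grik3: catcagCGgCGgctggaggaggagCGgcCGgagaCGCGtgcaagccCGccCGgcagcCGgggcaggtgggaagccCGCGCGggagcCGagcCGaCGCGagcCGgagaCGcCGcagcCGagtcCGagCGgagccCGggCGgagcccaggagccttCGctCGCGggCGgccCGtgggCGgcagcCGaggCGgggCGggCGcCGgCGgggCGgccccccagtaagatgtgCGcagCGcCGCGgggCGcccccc
Gabrp: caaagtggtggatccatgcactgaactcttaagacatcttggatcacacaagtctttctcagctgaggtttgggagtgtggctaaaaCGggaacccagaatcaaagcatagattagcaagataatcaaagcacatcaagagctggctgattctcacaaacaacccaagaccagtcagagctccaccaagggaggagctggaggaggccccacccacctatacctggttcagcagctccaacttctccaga

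Such a window, of 300 bases from 250 before to 50 after the start, was held for 35 of the 46 members. The RE1 consensus searched for, on both strands, has 19 fixed positions among 21. It was taken from general knowledge of the element and from no deposited file, and the mismatch counts depend on it. The Gria2 window matched it with 2 mismatches, from 174 to 154 bases before the start, on the strand opposite to the gene. The next closest member windows had 6 mismatches. Of 27025 genes with a window, 9 (0.0333%) held a match with at most 2 mismatches. The Gria2, Glrb and Grik3 windows held 26, 30 and 50 CG dinucleotides, the Gabrp window 4, and the median was 12 over members and 7 over all genes. These are descriptions of the letters and of no measured binding.

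The question of the first comparison was how far the receptor genes of iPSC-derived cells reach the levels of primary neurons. In control cells 30 of the 46 members were lower than in primary neurons, 1 was higher (Gabrp) and 15 did not pass the threshold (limma with Benjamini-Hochberg adjustment over all genes, adjusted p under 0.05). Of all genes, 22.5% were lower and 19.3% higher by the same rule. The median difference was −0.91 over the members and −0.11 over all genes. Treated cells, tested against the same primary samples, had 28 members lower and 1 higher, with a median of −0.85 (21.3% and 19.9% of all genes). Without both arrays numbered 5, control cells had 31 members lower and 2 higher (23.6% and 22.5% of all genes), and every call made with them was kept. Treated cells then had 29 lower and 2 higher (22.8% and 22.9% of all genes). In these bulk samples fewer cells of a type and less RNA per cell cannot be told apart.

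**Figure D1:**
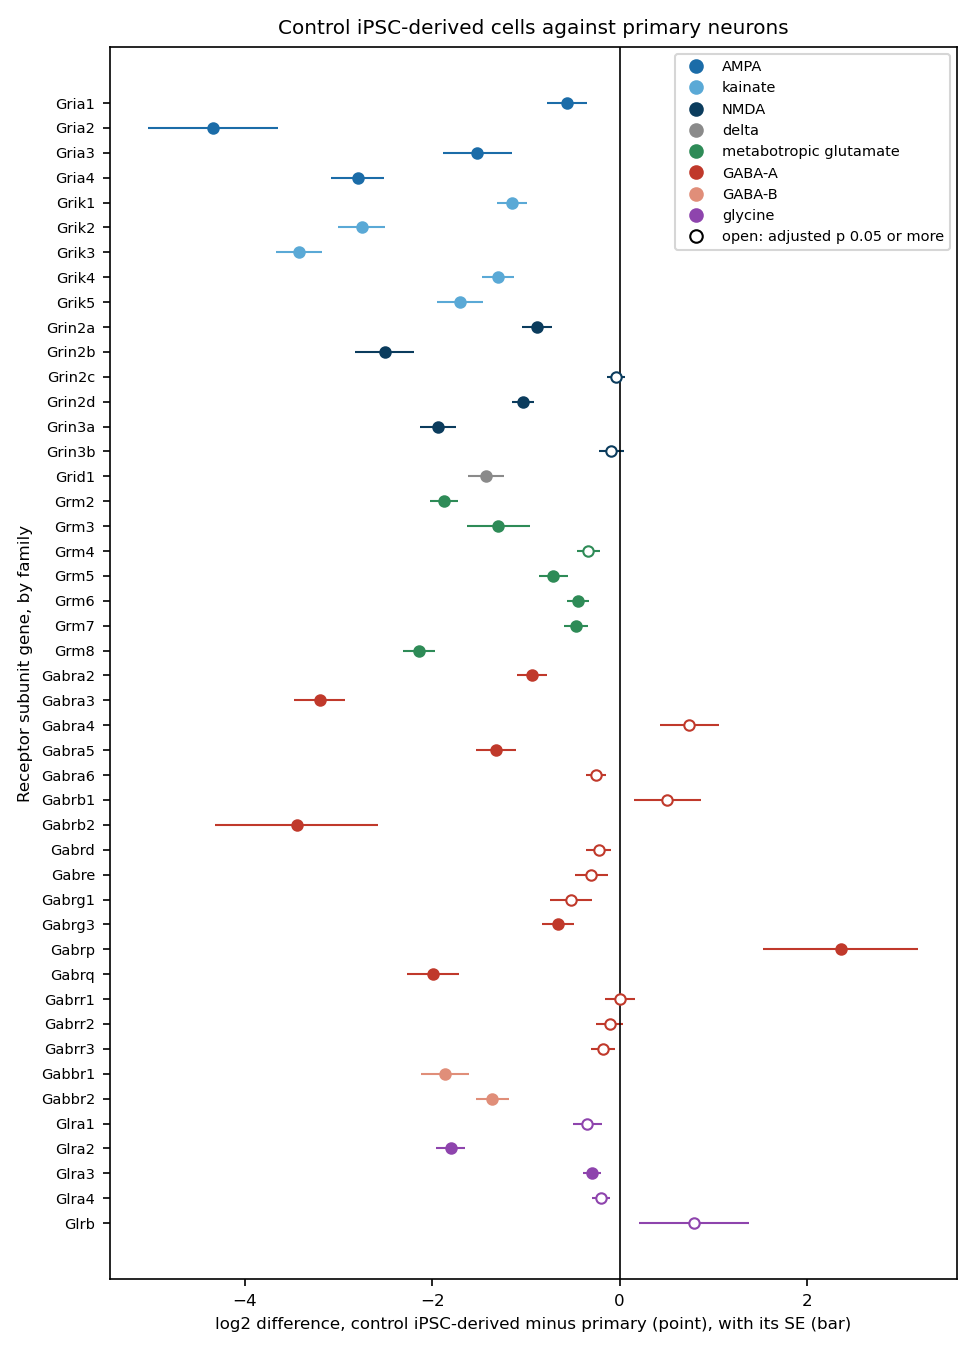
Difference in log2 level between control iPSC-derived cells (5 arrays) and primary neurons (2 stage samples) for the 46 receptor subunit genes, by family; points are differences, bars their standard errors, and filled points passed the adjusted p of 0.05. All 9 AMPA and kainate genes lie left of 0, Gria2 farthest at −4.34, and Gabrp lies alone on the right among filled points, at 2.36.

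Markers of several other cell types, but not of all, moved with this contrast. All 9 general neuronal markers were lower in control and in treated cells. Their mean level was 10.3 to 10.7 on primary arrays, 6.30 to 8.80 on treated and 6.43 to 8.48 on control arrays. All 3 markers of GABAergic neurons (Gad1, Gad2 and Slc32a1) were lower in both iPSC-derived groups too. The mean level of these 3 was 7.66 to 8.24 on primary, 5.32 to 6.03 on treated and 5.09 to 5.86 on control arrays. Of 2 markers of glutamatergic neurons, Slc17a6 was lower in both groups and Slc17a7 did not pass in either. Mesenchymal markers were higher in both iPSC-derived groups for 7 of 7 genes, with mean levels of 9.15 to 10.2 on iPSC-derived and 5.57 to 5.82 on primary arrays. Epithelial markers were higher for 4 of 4 genes (8.74 to 10.8 against 5.93 to 6.12), and markers of astrocytes and radial glia for 5 of 6 (8.96 to 10.1 against 6.00 to 6.82). Pluripotency markers had mean levels of 5.26 and 5.56 on treated and control array 5 and of 7.65 to 9.19 on the other iPSC-derived arrays, against 4.98 to 5.91 on primary arrays; 0 of 5 passed in control cells, and 5 of 5 were higher without both arrays numbered 5. Of 4 oligodendrocyte lineage markers, only Pdgfra, also a mesenchymal marker, was higher, and 0 were lower. Of 4 microglia markers, Csf1r was higher (2.21 in control) and Tyrobp lower (−0.99 in control). Both counts were the same in treated cells. None of these lists can be read as absent, since the deposited values have no true 0. The part of cell composition in the receptor differences was not tested.

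AMPA receptors carry most fast excitation, and all 4 of their genes were lower in control cells. Gria2 encodes GluA2, the subunit that, once edited, keeps calcium out of the channel. Its level was 9.64, 9.54 and 9.54 at E13.5 and 9.63, 9.61 and 9.63 at E14.5. Control arrays 1 to 5 read 5.04, 4.98, 4.92, 4.70 and 6.67, and treated arrays 5.02, 4.55, 4.66, 4.68 and 7.34. No iPSC-derived array reached the lowest primary array, and array 5 was the highest of both groups. Control was 4.34 below primary neurons (difference −4.34, SE 0.69, limma adjusted p = 0.000305), and −4.69 (SE 0.14, limma adjusted p = 3.99e-09) without both arrays numbered 5. Treated cells differed by −4.35 (limma adjusted p = 0.000306).

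The other AMPA genes spanned a wide range. Gria4, which encodes GluA4, differed by −2.80 (SE 0.28) and Gria3 by −1.52 (SE 0.37) in control cells. Gria3 did not pass with E14.5 as the only primary sample. Gria1, encoding GluA1, differed by only −0.56 (SE 0.21, limma adjusted p = 0.0487), and the difference missed the threshold in 11 of 20 alternative settings, without treated replicate 2, 3 or 4 or control replicate 1, 2, 4 or 5 among them. Over the 20 its adjusted p in limma ranged from 0.0231 to 0.279. In treated cells its difference was −0.55 (limma adjusted p = 0.0535).

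Rest, which encodes the repressor that binds RE1, was added after its values were seen. It read 8.21 to 8.58 on control, 8.15 to 8.77 on treated and 5.50 to 6.18 on primary arrays, with no overlap between iPSC-derived and primary arrays. Control minus primary was 2.54 (SE 0.17, limma adjusted p = 2.86e-07). Its part in the level of Gria2 was not tested.

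Kainate receptors act before and behind the synapse and modulate transmission. All 5 of their genes were lower in control and in treated cells, with differences from −3.42 to −1.15 in control. Grik3, encoding GluK3, read 9.30, 9.66 and 8.20 at E13.5 and 8.995, 8.68 and 9.44 at E14.5. It read 5.58, 5.35, 5.82, 5.51 and 5.88 on control arrays 1 to 5 and 5.60, 5.51, 5.48, 5.62 and 6.501 on treated arrays. Every iPSC-derived array lay below every primary array, and array 5 was the highest of both iPSC-derived groups. The difference from primary neurons was −3.42 in control (SE 0.24, limma adjusted p = 5.31e-07) and −3.31 in treated cells.

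Grik2, encoding GluK2, was the kainate gene with the next largest difference (control −2.75, SE 0.25). It read 7.62, 7.23 and 7.07 at E13.5, 8.63, 8.02 and 7.76 at E14.5, 4.76 to 5.24 on control and 4.78 to 5.51 on treated arrays. Grik5, a high-affinity subunit that needs a partner to form a channel, differed by −1.70, Grik4, of the same kind, by −1.30, and Grik1 by −1.15. Grik1, like Grin2a, Grm8, Gabra2 and Glra2 of the other families, was dim in both iPSC-derived groups and in neither primary sample.

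NMDA receptors need glutamate and a co-agonist to open and admit calcium. Of their 6 genes measured, 4 were lower in control cells. Grin2b, whose product GluN2B dominates embryonic receptors, read 7.81, 7.67 and 6.995 at E13.5 and 7.81, 7.25 and 7.65 at E14.5. Control arrays read 4.57, 4.64, 4.96, 5.04 and 5.91, and treated arrays 5.06, 4.74, 4.94, 4.99 and 5.68. Every iPSC-derived array lay below every primary array, and array 5 was again the highest. Control cells differed from primary neurons by −2.51 (SE 0.32, limma adjusted p = 5.27e-05).

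Grin3a, encoding a subunit that lowers calcium entry, differed by −1.94 in control, Grin2d, another early subunit, by −1.03 and Grin2a, a mainly postnatal one, by −0.88. Grin2c and Grin3b differed by −0.03 and −0.09 (limma adjusted p = 0.782 and 0.601), and the same pair did not pass in treated cells. Grid1, the delta receptor gene, encodes a synaptic organiser that binds cerebellins. It read 5.88, 6.44 and 6.58 at E13.5 and 6.72, 6.34 and 7.31 at E14.5, and 4.74, 5.44, 5.14, 4.96 and 5.32 on control and 5.11, 5.36, 5.04, 5.15 and 5.29 on treated arrays. The highest iPSC-derived array stayed below the lowest primary array. Control minus primary was −1.43 (SE 0.19, limma adjusted p = 6.85e-05).

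Metabotropic glutamate receptors were lower for 6 of 7 genes in control cells and for 5 in treated cells. Grm8, a presynaptic receptor that couples to inhibitory G proteins, read 6.14, 6.36 and 6.52 at E13.5 and 6.77, 5.97 and 6.27 at E14.5. Control arrays read 4.43, 4.29, 4.34, 3.98 and 3.96, and treated arrays 4.28, 4.02, 4.19, 4.09 and 4.60. The groups did not overlap, and array 5 was the lowest of the control and the highest of the treated arrays. In control cells the difference was −2.14 (SE 0.17, limma adjusted p = 1.21e-06).

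Among receptors of related coupling, Grm2 differed by −1.88 and Grm3 by −1.30 in control cells, Grm7 by −0.47 and Grm6, known from retinal bipolar cells, by −0.44. Grm4 was at −0.33 (limma adjusted p = 0.0508), and passed without both arrays numbered 5. Grm5, which couples to calcium release and is a main receptor of its group in the forebrain, differed by −0.71. Grm7 did not pass in treated cells (−0.29, limma adjusted p = 0.0954); whether treated and control cells differed for it is given below.

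**Figure D2:**
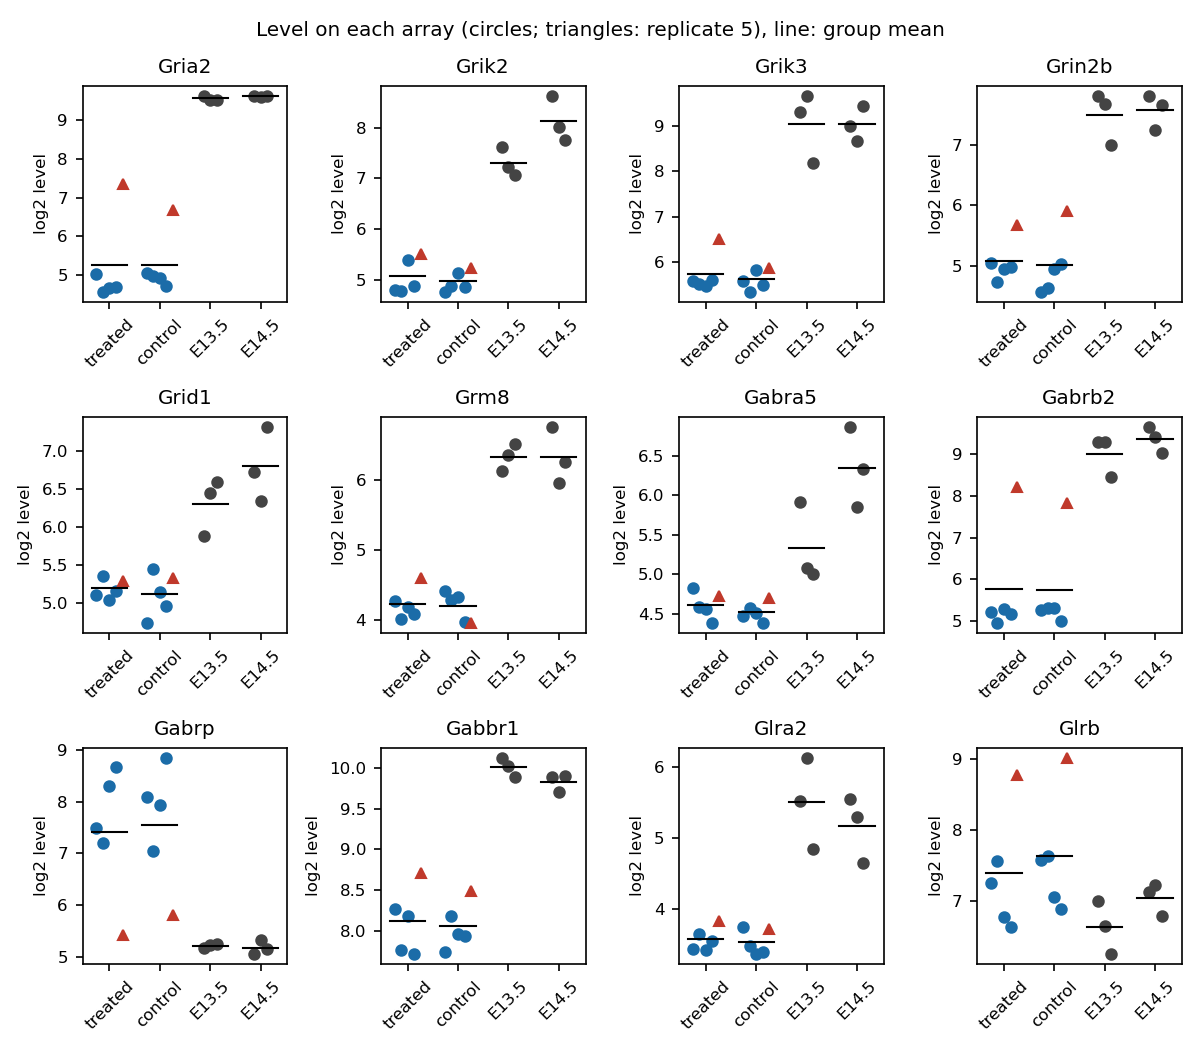
Log2 level of 12 receptor subunit genes on each of the 16 arrays; circles are arrays, triangles the arrays numbered 5, and lines group means. Gria2 and Gabrb2 are near 5 on iPSC-derived arrays 1 to 4, rise on arrays 5 and are highest on primary arrays, while Gabrp runs the other way.

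GABA-A receptor genes were the most mixed family. Of 16, 6 were lower in control cells, 1 was higher and 9 did not pass, and the counts were the same in treated cells. Gabrb2, a beta subunit found in most synaptic receptors, read 9.29, 9.30 and 8.46 at E13.5 and 9.65, 9.41 and 9.04 at E14.5. Control arrays read 5.28, 5.31, 5.31, 5.00 and 7.82, and treated arrays 5.21, 4.96, 5.29, 5.18 and 8.22. Array 5 of both groups lay far above the other iPSC-derived arrays and below every primary array. Control minus primary was −3.45 (SE 0.87, limma adjusted p = 0.00745), −3.97 (SE 0.14, limma adjusted p = 9.26e-09) without both arrays numbered 5, and −3.27 (limma adjusted p = 0.0648) with E13.5 as the only primary sample.

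Gabra3, an alpha subunit typical of embryonic and monoaminergic neurons, differed by −3.20 (SE 0.27, limma adjusted p = 2.14e-06) and Gabrq, the theta subunit beside it on the X chromosome, by −1.99. Gabra5, an alpha subunit of receptors outside the synapse, differed by −1.32 (SE 0.21), Gabra2 by −0.94 and Gabrg3 by −0.66. The rho genes Gabrr1, Gabrr2 and Gabrr3, known from the retina, were between −0.18 and 0.00 and did not pass. Gabra6, known from cerebellar granule cells, Glra3 and Glra4 had means below the arrays' lower quartile in all 4 groups.

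Gabrp encodes the pi subunit, found mainly in epithelia such as that of the uterus. It read 5.17, 5.23 and 5.24 at E13.5 and 5.05, 5.32 and 5.14 at E14.5. Control arrays read 8.09, 7.04, 7.94, 8.85 and 5.81, and treated arrays 7.50, 7.21, 8.30, 8.67 and 5.42. All iPSC-derived arrays lay above all primary arrays, but array 5 only just, and it was the lowest of both groups. The difference of control from primary was 2.36 (SE 0.83, limma adjusted p = 0.0384) and treated minus primary 2.23 (limma adjusted p = 0.0484). Without both arrays numbered 5 they were 2.79 (limma adjusted p = 0.00058) and 2.73 (limma adjusted p = 0.000676). Without control replicate 1, 3 or 4 the adjusted p in control was 0.0674, 0.0669 and 0.0695. The treated value missed the threshold in 12 of 20 alternative settings, without treated replicate 1, 2, 3 or 4 among them (limma adjusted p of 0.0733, 0.0643, 0.0896 and 0.0851) and without control replicate 1, 2 or 3 (0.0586, 0.0586 and 0.0612). Epithelial markers, given above, moved in the same direction; their part in the level of Gabrp was not tested.

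Gabra4 and Gabrb1, neighbours on chromosome 5, were 0.74 and 0.51 above primary neurons in control cells and did not pass (limma adjusted p = 0.0729 and 0.264). Gabra4 passed without both arrays numbered 5 (0.85, limma adjusted p = 0.0447). Both GABA-B genes were lower. Gabbr1, which encodes the subunit that binds GABA, read 10.13, 10.03 and 9.88 at E13.5, 9.89, 9.71 and 9.90 at E14.5, 7.74, 8.18, 7.95, 7.93 and 8.49 on control and 8.27, 7.76, 8.18, 7.71 and 8.70 on treated arrays. The groups did not overlap. Control minus primary was −1.86 (SE 0.25, limma adjusted p = 8.94e-05), and Gabbr2, which encodes the subunit that couples to the G protein, differed by −1.36 (limma adjusted p = 5.65e-05).

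Of 5 glycine receptor genes, 2 were lower in control cells. Glra2, the alpha subunit that prevails in the embryo, read 5.53, 6.14 and 4.85 at E13.5 and 5.55, 5.30 and 4.64 at E14.5. Control arrays read 3.75, 3.47, 3.36, 3.38 and 3.71, and treated arrays 3.43, 3.64, 3.41, 3.54 and 3.82. The groups did not overlap, and Glra2 was among the dim genes of iPSC-derived cells. Control cells were at −1.80 relative to primary (SE 0.15, limma adjusted p = 2.23e-06). Glra3, counted among the lower genes, differed by −0.29 (limma adjusted p = 0.0297), but its means were below the arrays' lower quartile in all 4 groups, so it was not shown to be above background. It missed the threshold in 5 of 19 alternative settings, without control replicate 2 among them (limma adjusted p from 0.00884 to 0.517 over the 19).

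Glrb encodes the beta subunit, which anchors glycine receptors to the scaffold gephyrin. It read 7.002, 6.65 and 6.26 at E13.5, 7.14, 7.23 and 6.80 at E14.5, 7.58, 7.63, 7.06, 6.90 and 9.02 on control and 7.27, 7.57, 6.78, 6.64 and 8.77 on treated arrays. The groups overlapped, and array 5 was the highest of each. Control minus primary was 0.79 (SE 0.58, limma adjusted p = 0.286), and 0.45 (limma adjusted p = 0.213) without both arrays numbered 5. Glrb and Gria2 lie side by side on chromosome 3, with no other protein-coding gene between them in RefSeq, and had the values 0.79 and −4.34. There were 7 such pairs of members. Gabra6 and Gabrb2 on chromosome 11 also had unlike differences (−0.25 and −3.45), while Gabra3 and Gabrq on the X chromosome (−3.20 and −1.99) and Gabrg3 and Gabra5 on chromosome 7 (−0.66 and −1.32) were all lower. Glrb and Gria2 were singled out as a pair after their values were seen.

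**Figure D3:**
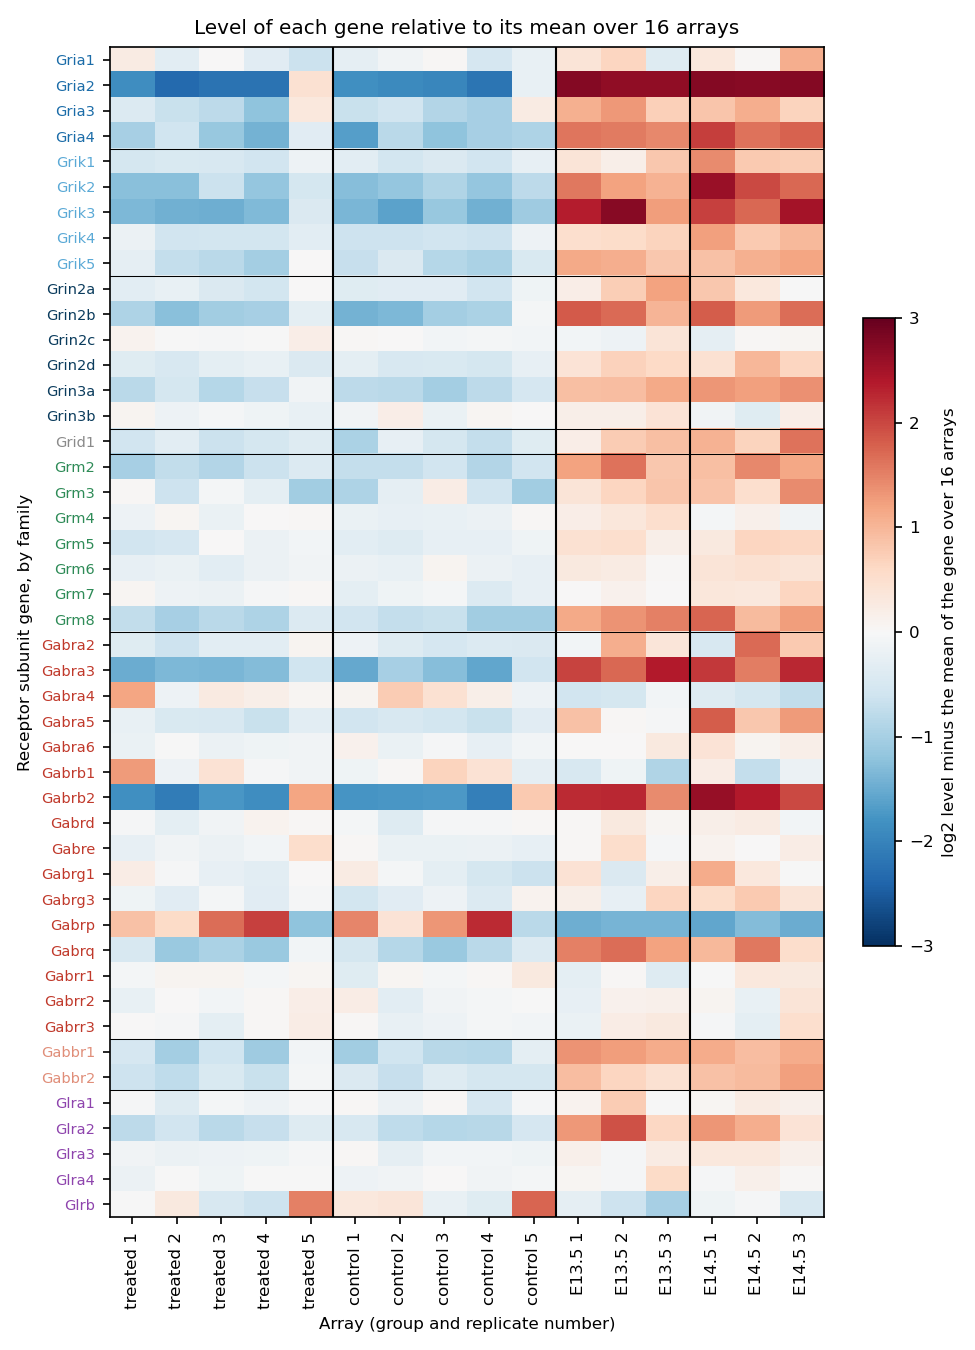
Log2 level of the 46 receptor subunit genes on each of the 16 arrays minus the gene's mean over all arrays, by family; red is above and blue below that mean. Primary arrays are red for most glutamate receptor genes, Gabrp is blue there, and the arrays numbered 5 are paler than the other iPSC-derived arrays for Gria2 and Gabrb2.

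The arrays numbered 5 were the highest of both iPSC-derived groups for 14 of the 46 members, and the lowest of both for 2, Gabrp and Grm3. By either rule these were 16 members, against 29.4% of all genes (2899 genes highest and 2967 lowest). The 14 were Gria2, Gria3, Grik1, Grik2, Grik3, Grin2a, Grin2b, Grin3a, Gabra3, Gabrb2, Gabrg3, Gabrq, Gabbr1 and Glrb. The mean level over all 46 members was 5.59 on treated array 5 and 5.43 on control array 5, 5.16 to 5.33 on the other iPSC-derived arrays, and 6.21 to 6.43 on primary arrays. Mean levels of dopaminergic and of general neuronal markers were also highest, and that of pluripotency markers lowest, on the same arrays. Of the dopaminergic genes, Foxa2 did not follow in either group. It read 7.02 on treated array 5 and 7.63 on treated array 4, and 6.88 on control array 5 and 7.39 on control array 4. Pitx3 was highest on control array 5 but not on treated array 5 (6.06, against 6.17 on treated array 1). The mean of mesenchymal markers was highest on the arrays numbered 5 too (10.08 in treated and 10.22 in control), farther from primary neurons. On the other arrays it was at most 9.84 and 10.10. Postn was higher on array 2 in both groups (10.53 against 10.19 in treated, 10.82 against 10.21 in control). Col1a1 was higher on treated array 1 (10.36 against 10.24) and Lum on control array 2 (9.492 against 9.487). Means of epithelial markers (8.74 and 8.97) and of markers of astrocytes and radial glia (9.13 and 8.96) were lowest on the arrays numbered 5 in both groups. Among the latter genes, Gja1 went the other way and was highest there in both groups (11.41 in treated and 11.49 in control). Gfap was lowest on treated array 5 but not on control array 5 (9.54, against 9.26 on control array 1).

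Genes whose products accompany the receptors were counted as lists, beside 22.5% of all genes lower and 19.3% higher in control cells. Of 17 auxiliary subunits, 15 were lower in control cells and 0 higher, with a median of −1.49. Cacng3 (−3.45, SE 0.82) and Cacng2 (−3.32, SE 0.41), which encode proteins that bring AMPA receptors to the synapse, and Neto2 (−3.17, SE 0.29), a partner of kainate receptors, had the largest differences. Of 19 scaffold genes, 13 were lower and 2 higher, with a median of −1.18. Dlg2 (−2.97), Shank1 (−2.43) and Nlgn3 (−1.79) encode postsynaptic scaffold and adhesion proteins and led the lower ones. The higher ones were Dlg1 (1.60), a scaffold also of epithelial junctions, and Gabarap (0.71), a trafficking protein of the autophagy pathway present in many cells.

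Of 13 genes of transmitter synthesis and transport, 6 were lower and 2 higher in control cells, against 22.5% and 19.3% of all genes. The vesicular glutamate transporter Slc17a6 differed by −4.10 (SE 0.64), the GABA-synthesising Gad2 by −3.85 (SE 0.38) and the vesicular GABA transporter Slc32a1 by −2.81 (SE 0.24). The glial glutamate transporter Slc1a3 (3.06, SE 0.30) and Glul, glutamine synthetase (1.82, SE 0.23), were higher, and Slc1a3 is also among the astrocyte and radial glia markers. In treated cells the counts of the auxiliary, scaffold and transmitter lists were the same as in control cells.

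The chloride transporters decide whether GABA-A and glycine receptors excite or inhibit. Slc12a2 (NKCC1), which brings chloride into the cell, read 9.43, 9.15, 8.80, 8.56 and 8.27 on control, 9.44, 8.96, 8.74, 8.90 and 8.42 on treated arrays and 6.59 to 7.94 on primary arrays. It was higher in control cells (1.495, SE 0.30, limma adjusted p = 0.00157). Slc12a5 (KCC2), the neuronal transporter that removes chloride, read 5.33, 5.15, 5.39, 5.24 and 6.18 on control, 5.63, 5.32, 5.44, 5.34 and 6.58 on treated arrays and 7.08 to 7.76 on primary arrays. It was lower (−1.94, SE 0.33, limma adjusted p = 0.000545). Neither gene's iPSC-derived arrays overlapped the primary ones, and for both genes array 5 was the closest to them in both groups.

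The comparison of treated with control cells asked whether WNT1 and DKK3 changed these genes. By limma 0 of the 46 members and 0 of all 19938 genes passed in either direction (0% of all genes). At an unadjusted p under 0.05 there were 0 members and 300 genes (1.5% of all genes). The largest member difference was that of Glrb, −0.23, and the smallest unadjusted p that of Grm7 (0.0779 in limma, difference 0.18, 95% interval −0.02 to 0.37). The difference was above 0 for 34 members and below 0 for 12, with a median of 0.04 over members and 0.02 over all genes, and 56.6% of all genes lay above 0. Without both arrays numbered 5 the split was 26 to 20, with 53.1% of all genes above 0 and medians of 0.015 and 0.008. With arrays centred on their medians it was 29 to 17, with 47.5% of all genes above 0 and medians of 0.016 and −0.006.

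For 42 members the 95% interval of treated minus control lay within a 2-fold change either way, as for 97.1% of all genes. Gria2 (−0.01, from −1.22 to 1.196), Gabrb2 (0.03, from −1.497 to 1.55), Gabrp (−0.13, from −1.58 to 1.33) and Glrb (−0.23, from −1.24 to 0.78) had wider intervals. In each of these 4 genes the arrays numbered 5 lay outside the range of the other arrays of their groups, displaced the same way in both. Without both arrays numbered 5 the intervals were −0.46 to 0.10 for Gria2, −0.31 to 0.18 for Gabrb2, −0.97 to 0.85 for Gabrp and −0.76 to 0.30 for Glrb. All 46 members' intervals then lay within a 2-fold change, as for 98.2% of all genes. With all arrays, narrower intervals were those of Grik3 (−0.32 to 0.54), Grin2b (−0.50 to 0.61), Grid1 (−0.22 to 0.36), Grm8 (−0.26 to 0.33), Gabbr1 (−0.37 to 0.51) and Glra2 (−0.22 to 0.28). In the auxiliary, scaffold, transmitter and chloride lists 0 genes passed.

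**Figure D4:**
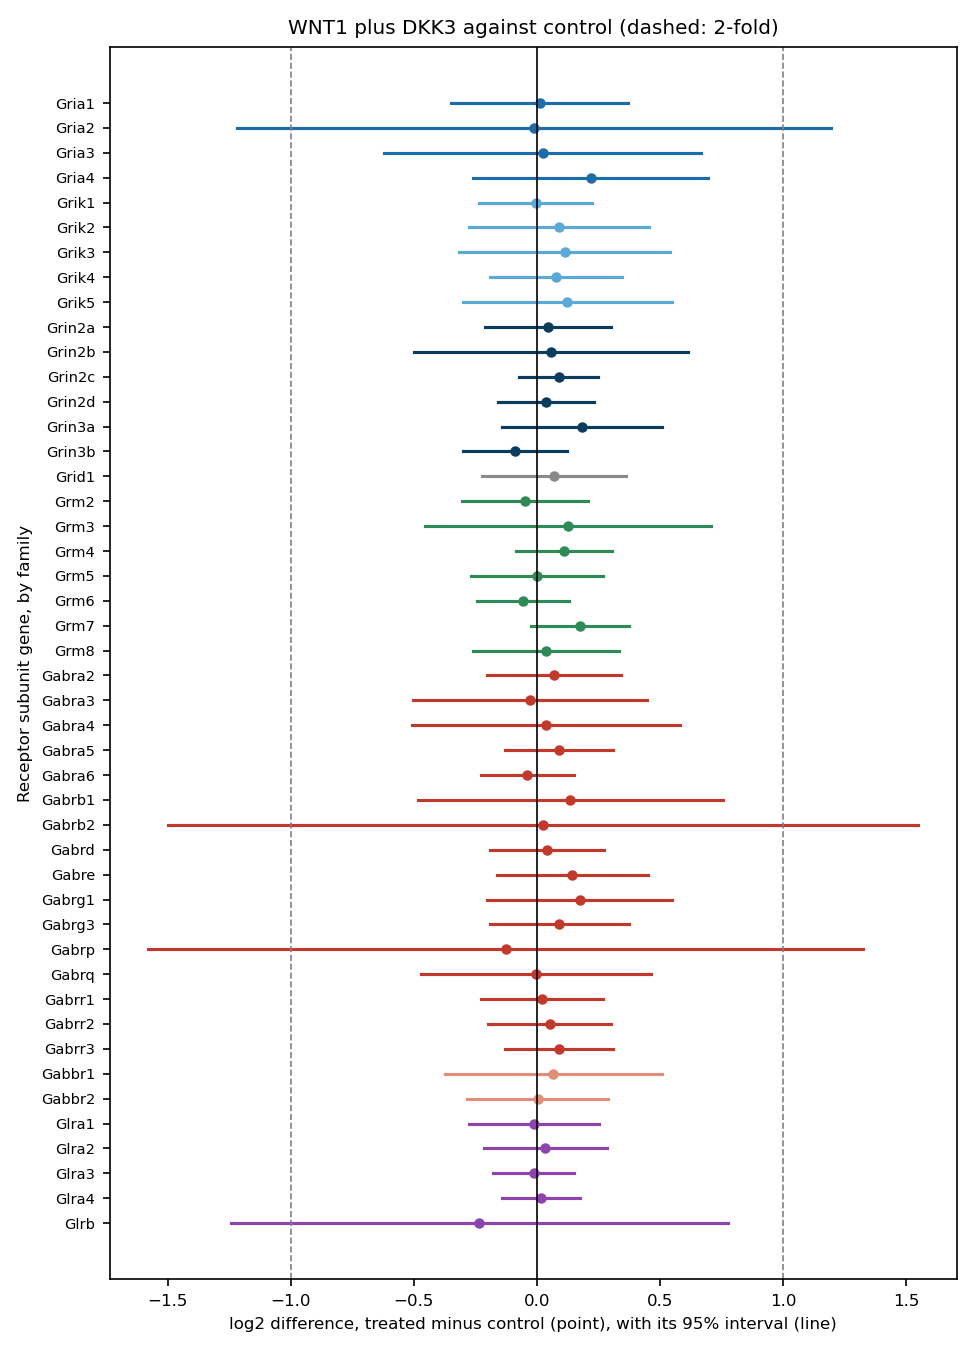
Log2 level in treated minus control iPSC-derived cells (5 arrays each) for the 46 receptor subunit genes; points are differences, lines 95% intervals, and dashed lines mark a 2-fold change. Every interval spans 0, and only those of Gria2, Gabrb2, Gabrp and Glrb cross a dashed line.

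E13.5 and E14.5 were 1 sample each, so their difference has no replicate check and no test. By the rule used, a difference of at least 1 with no overlap of technical arrays, 0 of the 46 members differed, against 0.176% of all genes higher and 0.0652% lower at E14.5. The median difference was 0.10 over members and −0.01 over all genes. Arrays of the stages did not overlap, whatever the size, for 7 members, of which 6 were higher at E14.5 (4.75% of all genes) and 1 lower (4.93%). The higher ones were Grik2 (0.83), Grik4 (0.42), Grm7 (0.38), Grin3a (0.32), Gria4 (0.29) and Grm6 (0.22), and Grm4 was the lower one (−0.35). Gabra5 had the difference of 1.02, with 5.92, 5.08 and 5.00 at E13.5 and 6.87, 5.85 and 6.33 at E14.5, so that 1 array of each stage overlapped. Gria2 was alike at both stages, at 9.58 and 9.62 on average, as was Grik3 at 9.05 and 9.04.

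**Figure D5:**
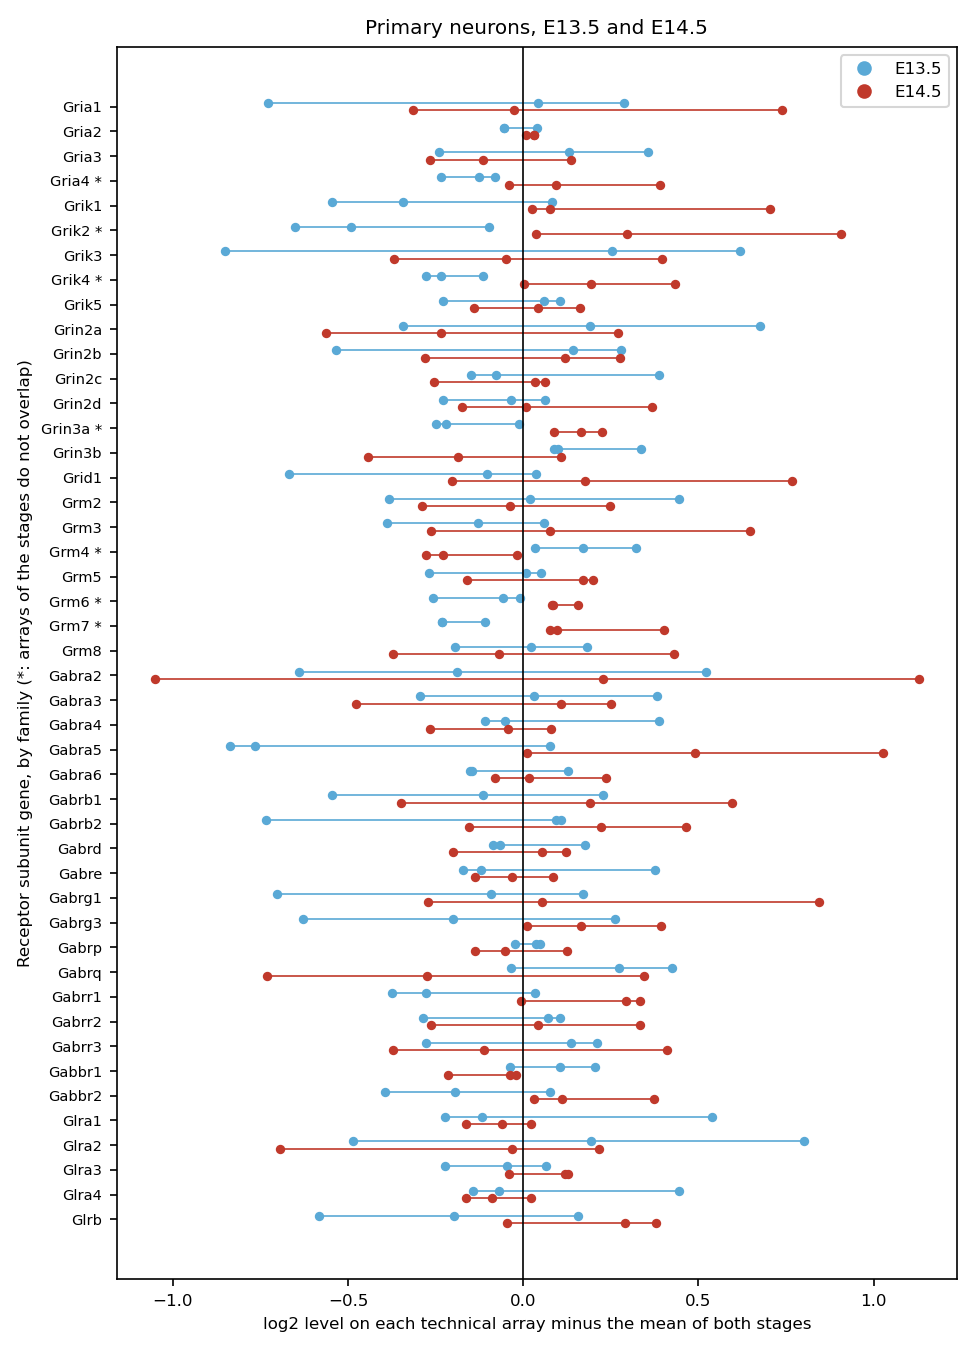
Log2 level of the 46 receptor subunit genes on the 3 technical arrays of each stage, minus the mean of both stages; a star marks genes whose arrays do not overlap between stages. Grik2 is the starred gene with the widest gap between stage means (0.83), and Gabra5 moves by 1.02 with overlapping arrays.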

How the data were processed

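The authors deposited log2 expression values for 35556 probe sets on 16 arrays. The submitters' processing notes list RMA, a method of background correction, quantile normalization and probe summary, together with Affymetrix Expression Console 1.2. They do not state whether the arrays were normalized in a common run. Levels are therefore relative, and the number of arrays limits the precision. Per the labels' protocols, a whole-transcriptome kit (Ovation PicoSL) amplified the RNA before labelling, which can add spread.

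Of the probe sets, 21789 carried 1 gene symbol in the platform's annotation, 1621 carried several and were left out, and 12146 were unlisted; 21698 symbols were updated by Entrez ID from a RefSeq table (GRCm38.p6). A gene with several probe sets was represented by the one with the highest mean. limma 3.58.1 (lmFit and eBayes, R 4.3.3) was fitted over all 19938 genes, and calls were made at a Benjamini-Hochberg adjusted p of 0.05. Treated and control were compared on 10 arrays (8 residual degrees of freedom). Each was compared with primary neurons in 1 fit of 12 samples in 3 groups (9 residual degrees of freedom), in which a stage was the mean of its 3 arrays. The stages themselves were compared without a test. The fit was tested on simulated data, and 0 pairs of arrays held identical values.

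The receptor genes, lists and tests were chosen with earlier results of these data known. Values on every array are given for Gria2 and for the member with the largest difference past the threshold in control against primary per family. They are also given for the higher members and for members called between stages. Details of Grik2, Gabra5, Glrb, Gabra4, Gria1, Th and Rest were added after their values were seen, as array values, ranges or differences. Array values of Slc12a2, Slc12a5 and some marker genes are given outside this rule. Treated and control labels share replicate numbers but state no pairs. The deviations of same-numbered arrays correlated at 0.045, 0.52, 0.44, 0.72 and 0.80 over genes for numbers 1 to 5. The value was near 0 for number 1 alone. Values for differently numbered arrays ran from −0.51 (treated 5, control 4) to 0.53 (treated 3, control 4). These values do not settle whether the numbers are pairs, and the reported fits did not use them as such. The intervals of treated minus control are therefore unpaired. Calls with the replicate number as a block are given below, without intervals. Alternatives left out arrays or dim genes, or changed the normalization, the probe set rule, the primary samples or the fit.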

Additional observations from a re-analysis of the deposited data

Results flagged for a closer look

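In the groups of 5 arrays, 1 array lay far from the other 4 for 13 of 92 gene and group combinations. The nominal rate of the rule is 5%, but the genes share the same 10 arrays and are not independent. The share over all genes was not counted for this rule, so no excess among members is read from it. Of these 13, 10 were arrays numbered 5, and all 10 were high.

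Among treated arrays, array 5 read 8.22 for Gabrb2 (next highest 5.29), 7.34 for Gria2 (5.02), 6.501 for Grik3 (5.62), 5.31 for Gabra3 (4.61), 5.24 for Gabre (4.64) and 4.41 for Grik1 (4.11). Among control arrays, array 5 read 7.82 for Gabrb2 (next highest 5.31), 6.67 for Gria2 (5.04), 5.95 for Grik4 (5.51) and 5.20 for Grm4 (4.97). Gabrb2 and Gria2 were thus far from the rest in both groups. By mean level, dopaminergic markers were highest on the same arrays (7.87 and 7.47) and pluripotency markers lowest (5.26 and 5.56). Means of mesenchymal markers were also highest there (10.08 and 10.22). Those of epithelial (8.74 and 8.97) and of astrocyte and radial glia markers (9.13 and 8.96) were lowest. Foxa2, Postn and Gja1 did not follow the means of their lists in either group, as given above. The part of these lists in the readings was not tested.

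The other 3 were not of array 5: Gabrd was low on control array 2 (5.23, next lowest 5.54), Gabre high on control array 1 (4.74, next highest 4.54) and Grm6 high on control array 3 (5.23, next highest 4.97).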

How the results depend on the processing

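The count of members lower in control than in primary neurons lay between 23 and 33 over 20 alternatives (30 in the reported fit), and in treated cells between 22 and 32 (28); 0 called members changed direction in any of them. The lowest counts came with the dimmest 25% of genes left out, which removes 14 members, and with E13.5 as the only primary sample. Quantile normalization of the deposited values moved the median over all genes from −0.11 to 0.00 in control and from −0.09 to 0.01 in treated cells; the members' medians were then −0.73 and −0.70. The count of higher members, 1 in both comparisons, was less stable. In control it was 0 with E13.5 or E14.5 as the only primary sample, and 2 without both arrays numbered 5, with the 2 groups fitted alone or with 6 primary arrays as separate samples. In treated cells it was 0 with arrays centred on their medians, with either stage alone or with the 2 groups fitted alone, 2 without both arrays numbered 5 and 3 with 6 primary arrays. Leaving out 1 array gave 0 to 2 in control and 0 to 1 in treated cells. The calls that changed with the primary samples used have fewer or more samples by construction. The fit with 6 primary arrays, which gave the highest counts of lower members (33 and 32), treats technical arrays as if they were replicates.

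With the replicate number as a block, 30 of the 31 calls in control and 29 of 29 in treated cells were kept (Gria1 was lost, with 29 members lower in control), and treated against control had 0 members higher and 0 lower. It changed no other call made by the fit without the block.

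Treated minus control had no call, and the sign of single genes turned. Without both arrays numbered 5 it was −0.07 for Gabrb2, −0.01 for Grik3 and −0.11 for Grm8. Leaving out 1 array gave −0.078 to 0.175 for Gabbr1, −0.59 to 0.55 for Gabrb2, −0.56 to 0.37 for Gabrp, −0.030 to 0.087 for Glra2, −0.53 to 0.34 for Gria2, −0.027 to 0.149 for Grid1, −0.078 to 0.179 for Grik3, −0.092 to 0.280 for Grin2b and −0.054 to 0.095 for Grm8. Between stages, the count of higher members (0) was 1 with a 1.5-fold limit, 0 to 1 without 1 array, and 6 with no limit on size, which was added after seeing the data and gave 1 lower member. No detection call or background was given, so dim genes could be left out only by level.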
